A study of Mus musculus with 2 samples.

Results

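The genes described here are 10 that encode secreted modulators of Wnt signalling, Frizzled receptors and 1 feedback inhibitor of the pathway: Sfrp1, Sfrp2, Frzb, Wif1, Dkk2, Dkk3, Fzd1, Fzd6, Fzd8 and Axin2. They were chosen by name, with earlier results of these data known. Their probe sets are those whose annotation names exactly 1 gene, that gene being 1 of the 10. All 10 were measured, by 17 probe sets, among 12393 genes in all. Both samples are labelled as calvarial osteoblasts, primary bone-forming cells from the skull vault, of C57Bl/6 mice aged 4 to 5 days. One array is labelled Col1-Dlk1, for mice that overexpress Dlk1 (delta-like non-canonical Notch ligand), and its cells were sorted for Dlk1 on their surface, per the labels' protocols. The labels do not say which promoter the name Col1 stands for. The other is labelled wild type, from littermates without the transgene, and no source used here says whether those cells were sorted. If they were not, genotype and sorting cannot be told apart in any difference below. Each array carried a pool of 3 cultures, so there is 1 array per genotype, no spread between cultures can be computed, and no difference below has a test or a replicate check.

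Wnt proteins are secreted ligands that bind Frizzled receptors together with the co-receptors Lrp5 and Lrp6. In the canonical branch this stops the destruction of beta-catenin, which then switches on target genes with TCF/LEF factors. Secreted proteins tune the signal outside the cell. The secreted Frizzled-related proteins (Sfrp1, Sfrp2, Frzb) carry a Frizzled-like cysteine-rich domain and bind Wnts, Wif1 also binds Wnts, and Dickkopf proteins such as Dkk1 and Dkk2 bind Lrp5 and Lrp6. In bone, canonical Wnt signalling is known for promoting osteoblast formation.

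Readings are linear probe-set intensities. Each difference was taken as Col1-Dlk1-labelled minus wild-type-labelled, in log2(intensity + 10.96), where the pseudocount of 10.96 is the 25th percentile of all values, and probe sets of a gene were averaged on that scale. The pseudocount makes the differences of dim genes smaller than the plain ratios of their intensities. A gene passed the level threshold when its higher value reached 42.8, the median of all values, and a call of higher or lower required in addition a 2-fold difference on this scale. The differences given by probe sets of the same gene had a pooled SD of 0.47 log2 units over 3230 level-passing genes. This probe-set SD describes how far single probe sets of a gene disagree within the same 2 arrays. It holds no spread between cultures or arrays, so it is only a scale of size below.

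The labels and the cells were checked first. Dlk1 itself read 26.5 on the Col1-Dlk1-labelled array and 306 on the wild-type-labelled array, a log2 difference of -3.08 from its 1 probe set, which goes against the label. It is not known here if RNA made from the transgene is detected by it, and an exchange of the labels was not tested. Every direction and rank below holds for the labels as given, and all of them would turn if the labels were exchanged. Of 10 measured osteoblast markers, only 3 passed the level threshold, namely Sparc, Col1a1 and Col1a2, and the other 7 (Sp7, Alpl, Ibsp, Dlx5, Pth1r, Phex and Dmp1) were below it on both arrays. Of 22 macrophage markers, 21 were called higher on the Col1-Dlk1-labelled array, and their summed level was 25416 against 341. Their range was 10.2 to 7267 on that array and 1.16 to 43.3 on the wild-type-labelled array. All 20 measured cell cycle genes were called lower, with a summed level of 2465 (8.93 to 1242) against 9795 (83.6 to 3163). The part of these differences in those of the Wnt genes was not tested, and in pooled cultures fewer cells of a type and less RNA per cell cannot be told apart.

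Of the 10 genes, 7 passed the level threshold. Dkk3 and Fzd8 were called higher on the Col1-Dlk1-labelled array and Sfrp2 and Fzd6 were called lower, while Sfrp1, Dkk2 and Fzd1 lay within 2-fold. Frzb, Wif1 and Axin2 did not reach it, so no call was possible. Among all 6795 level-passing genes 9.39% were called higher and 7.11% lower, against 2 of 7 in each direction here, counts too small to read as a share. The median difference of the 10 genes was -0.19, and that of all genes was 0.015.

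**Figure D1:**
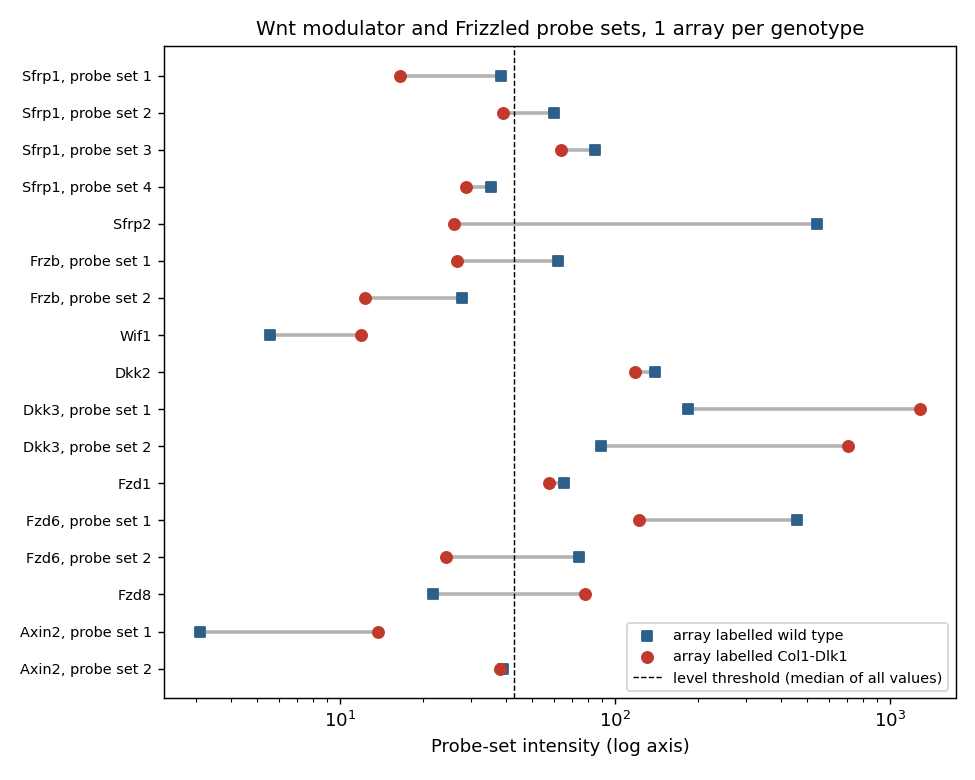
Intensity (log axis) of each of the 17 probe sets on the Col1-Dlk1-labelled array (red circles) and the wild-type-labelled array (blue squares), with 1 array per genotype and the level threshold of 42.8 as a dashed line. Sfrp2 has the widest gap, 26.0 against 542, and both Dkk3 probe sets lie far to the right on the Col1-Dlk1-labelled array.

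Among the secreted Frizzled-related genes Sfrp1, Sfrp2 and Frzb, all 7 probe sets read lower on the Col1-Dlk1-labelled array, but only Sfrp2 was called. The family as a whole was not uniformly lower. Sfrp4, outside the set described here, read higher on that array within 2-fold, at 45.6 against 37.3 (0.23). Sfrp5, also outside the set, read lower, at 4.44 against 22.0 (-1.10), below the level threshold on both arrays. These probe sets are too few to read as a share. Sfrp2, a Wnt-binding protein of mesenchymal cells, read 26.0 on the Col1-Dlk1-labelled array and 542 on the wild-type-labelled array. The plain ratio was 20.8 and the log2 difference was -3.90, the third most negative among the level-passing genes. The lower reading is itself under the level threshold, so the size of the fold depends on the pseudocount. With a pseudocount of 1 the difference was -4.33, and with the median of all values as pseudocount it was -3.09. A single probe set names Sfrp2, so no second probe set checks it.

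Frzb, also known as Sfrp3 and first studied in cartilage, read 26.6 against 62.3 on one probe set and 12.3 against 27.7 on the other. Their plain ratios were alike, 2.34 and 2.25 in favour of the wild-type-labelled array. Averaged, Frzb read 18.6 against 42.3, a log2 difference of -0.85, and it stood just short of the level threshold of 42.8. One of its readings, 62.3, is above that threshold. With a pseudocount of 1 the difference was -1.15, past 2-fold, but the gene average was again below the level threshold.

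Sfrp1, a Wnt antagonist known to limit bone formation, has 4 probe sets. They read 16.6 against 38.5, 39.0 against 60.0, 63.8 against 84.8 and 28.7 against 35.3, each pair with the Col1-Dlk1-labelled array first. All 4 were lower on that array, and their log2 differences ranged from -0.85 to -0.22. The gene average was 34.0 against 51.8, a log2 difference of -0.48. The probe-set SD of 0.47 is for single probe sets and is no noise level for this average of 4. Set against its relatives, the Sfrp2 difference minus that of Sfrp1 was -3.42 log2 units, and minus that of Frzb it was -3.06.

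Markers of fibroblasts and suture progenitors, the loose mesenchymal cells around the growing skull bones, had differences of both signs, but every call was lower. Of 10 measured genes in that list, which also holds Axin2, 6 had a positive and 4 a negative difference, and 3 were called lower and 0 higher. In that list 8 genes passed the level threshold, too few to read as a share beside the 7.11% of all level-passing genes called lower. The calls were led by Postn, the matrix protein periostin (609 against 4232, -2.78), and Cd34, a progenitor surface antigen (21.2 against 162, -2.43). The remaining call was Pdgfra (99.0 against 375, -1.81). The summed level of the list was 5223 against 7986, its values ran from 3.47 to 2900 on the Col1-Dlk1-labelled array and from 3.39 to 4232 on the other, and its median difference was 0.0051. Postn alone carried the lower sum, which without it was 4614 against 3754. Lum (0.91), Thy1 (0.58) and Dcn (0.44), genes of stromal matrix and surface proteins named after their values were seen, read higher on the Col1-Dlk1-labelled array, within 2-fold. Twist1 (-0.66), likewise named afterwards, read lower within 2-fold. Prrx1, a mesenchymal transcription factor chosen after its value was seen, read 494 on both arrays. The part of these cells in the Sfrp2 difference was not tested.

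Wif1, which binds Wnts through a domain unlike that of the Frizzled-related proteins, read 12.0 on the Col1-Dlk1-labelled array and 5.54 on the wild-type-labelled array. Both readings lie far below the level threshold, and the log2 difference was 0.47. No call of Wif1 was possible at this signal.

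The Dickkopf genes parted from each other. Dkk3, a divergent Dickkopf protein that does not act on Lrp5 and Lrp6 as Dkk1 does, read 1280 against 184 on one probe set and 706 against 88.6 on the other. Both probe sets read higher on the Col1-Dlk1-labelled array, with plain ratios of 6.97 and 7.96. Averaged, Dkk3 read 951 against 128, a log2 difference of 2.79, and the 2 probe sets differed from each other by only 0.12. All 4 readings passed the level threshold, so this difference depends little on the pseudocount. The gene ranked 110 among the 6795 level-passing genes, counted from the most positive difference.

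Dkk2, which binds Lrp6 and has been tied to late osteoblast maturation, read 118 against 140. The log2 difference of -0.23 is under the probe-set SD, from 1 probe set. Dkk3 and Dkk2 thus lay 3.02 log2 units apart in their differences. Of the other Dickkopf genes and relatives in the list, Dkk1, Dkk4 and Dkkl1 did not reach the level threshold on either array.

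**Figure D2:**
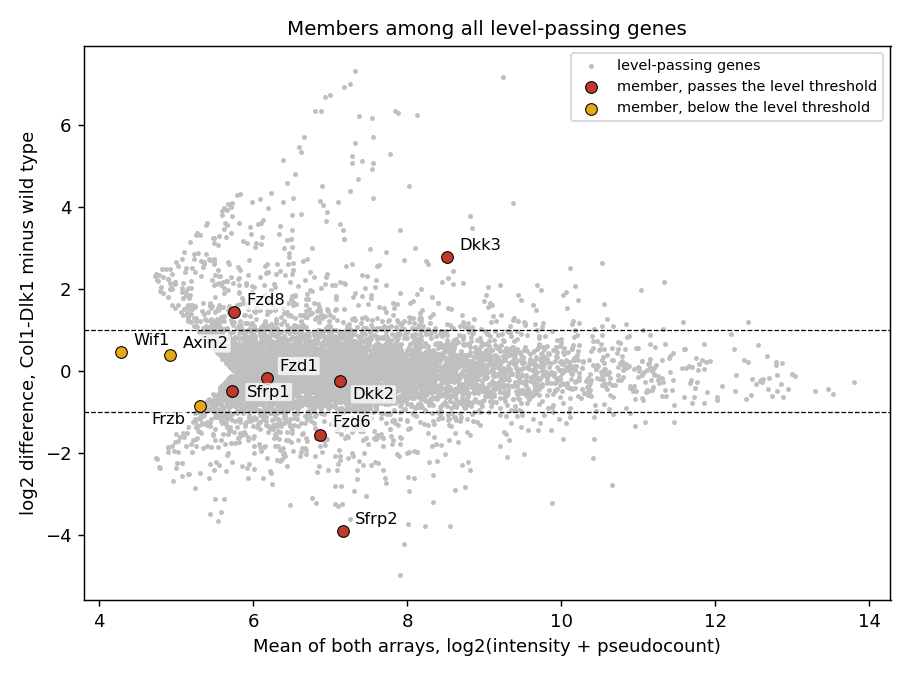
Difference between the arrays (log2, Col1-Dlk1 minus wild type) against the mean log2(intensity + pseudocount) for level-passing genes (grey) and the 10 Wnt genes (red where they pass the level threshold, yellow where they do not), with dashed lines at the 2-fold rule. Sfrp2 at -3.90 lies at the lower edge of the cloud and Dkk3 at 2.79 lies well above the band, below the macrophage genes at the top, while Fzd1, Dkk2 and Sfrp1 lie inside the band.

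The Frizzled receptors, the seven-pass membrane proteins that take up the Wnt signal, also differed in both directions. Fzd6, a receptor best known for planar cell polarity and for restraining canonical signalling, read 122 against 458 on one probe set and 24.2 against 73.7 on the other. Both were lower on the Col1-Dlk1-labelled array, by plain ratios of 3.76 and 3.05. The gene average was 57.3 against 188, a log2 difference of -1.54, with -1.82 and -1.27 from the single probe sets.

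Fzd8, a receptor that forms complexes with Wnt and Lrp6, read 77.7 on the Col1-Dlk1-labelled array and 21.8 on the wild-type-labelled array. The plain ratio was 3.56 and the log2 difference 1.43, from 1 probe set. The lower reading is below the level threshold, and with the median of all values as pseudocount the difference was 0.90, which no longer reaches 2-fold. A level threshold at the 75th percentile of all values also ended this call, because the higher reading lies below it.

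Fzd1, a receptor of canonical Wnts, read 57.5 against 65.4 from 1 probe set. Its log2 difference of -0.16 was under the probe-set SD. Fzd8 and Fzd6, called in opposite directions, lay 2.98 log2 units apart. Among the Frizzled genes that are not in the set of 10, Fzd2 was called lower at 137 against 347, a log2 difference of -1.27, and all 3 of its probe sets were lower (-1.46, -1.08 and -1.27). Fzd7 read 55.3 against 30.6 (0.67), within 2-fold. Fzd3, Fzd4, Fzd5 and Fzd9 were below the level threshold. Of 9 measured Frizzled genes, 5 passed the level threshold, 1 was called higher and 2 lower, and the median difference was -0.16. Of all level-passing genes 9.39% were called higher and 7.11% lower, and 5 genes are too few to read as a share.

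Axin2, a scaffold of the beta-catenin destruction complex, is itself a direct target of the pathway and is widely used as its readout. One probe set read 13.7 on the Col1-Dlk1-labelled array against 3.11 on the wild-type-labelled array, and the other read 38.1 against 39.0. The brighter of them did not separate the arrays (-0.025), and the dimmer gave a log2 difference of 0.81 from readings far below the level threshold. Averaged, Axin2 read 23.8 against 15.5 (0.39), and the direction turned to -0.025 when the brightest probe set alone was taken. Neither probe set reached the level threshold on either array.

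Upstream sequences were available for 6 of the 10 genes, Frzb, Sfrp2, Dkk2, Fzd1, Wif1 and Axin2, from RefSeq on the GRCm38.p6 build. The 250 bases before each listed start were searched on both strands for CTTTGA, the core letters that TCF/LEF factors, the nuclear arm of the pathway, recognise (TCAAAG on the other strand). Frzb and Fzd1 each held 1 match and the other 4 held none, and 13.8% of all 32851 windows of that length hold at least 1. Both windows are shown, since they place the same letters before a gene that read lower on both of its probe sets and before a gene whose difference was under the probe-set SD. Capitals mark the match. The Frzb window is chr2:80447397-80447646 on the minus strand and the Fzd1 window is chr5:4758217-4758466 on the minus strand, both written 5′ to 3′ in the direction of the gene.
Frzb: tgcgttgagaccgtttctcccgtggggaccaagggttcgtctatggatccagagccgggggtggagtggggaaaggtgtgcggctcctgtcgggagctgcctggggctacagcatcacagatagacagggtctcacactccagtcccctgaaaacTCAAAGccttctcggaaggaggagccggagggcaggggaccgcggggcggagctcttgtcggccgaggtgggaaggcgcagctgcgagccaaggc
Fzd1: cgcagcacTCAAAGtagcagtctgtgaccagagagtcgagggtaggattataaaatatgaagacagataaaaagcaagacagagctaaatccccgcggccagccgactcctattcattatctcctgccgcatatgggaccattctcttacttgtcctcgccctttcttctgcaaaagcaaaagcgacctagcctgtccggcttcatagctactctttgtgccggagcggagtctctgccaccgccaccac
The match starts 95 bases before the listed start in Frzb and 242 bases before it in Fzd1. A match describes these letters and does not show that a factor binds there. The GC content was 64.4% in the Frzb window and 51.2% in the Fzd1 window, against a median of 52.4% over all windows. The windows of Sfrp2, Dkk2 and Axin2 overlap the span of their own gene in the RefSeq table and are not shown.

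The pathway was read from lists by role, which hold 132 genes. Without the 10 genes above, 105 were measured and 51 passed the level threshold, of which 5 (9.80%) were called higher and 7 (13.7%) lower, against 9.39% and 7.11% of all level-passing genes. The median difference was -0.051 over the 105 and -0.13 over the 51, and 54 were too dim to call. With the 10 genes included, 115 were measured, 58 passed, 7 were called higher and 9 lower. The calls thus went in both directions. Most single lists below hold few level-passing genes, and their counts are too small to read as a share.

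The ligands were mostly dim. Of 19 Wnt genes, 16 were below the level threshold, and the median difference was -0.086. Wnt5a, a ligand of the non-canonical branch, read 91.0 against 38.9 (1.03) and was called higher, but its probe sets gave 1.67 and 0.40. Wnt2 read 52.8 against 19.6 (1.06) and was also called higher. Wnt11, another non-canonical ligand, read 32.2 against 47.1 (-0.43). Wls, the carrier that brings Wnt proteins to the cell surface, was called higher at 1013 against 421 (1.25), with all 3 probe sets higher (1.29, 0.80 and 1.65).

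The wider list of secreted antagonists and modulators had 18 measured genes, of which 9 passed the level threshold, and a median difference of -0.22. Besides Dkk3 and Sfrp2, only Sostdc1 was called. This antagonist of both BMP and Wnt signals, also called sclerostin domain-containing 1, read 1.87 against 44.8 (-2.12), just past the level threshold on the wild-type-labelled array. Rspo2, an R-spondin that enhances Wnt signalling, read 55.7 against 88.2 (-0.57), and Notum, an enzyme that inactivates Wnts, read 21.1 against 44.7 (-0.79). Sfrp4 (0.23) and Igfbp4 (0.16) lay within 2-fold. Sost, the osteocyte antagonist sclerostin, read 2.70 against 9.49, below the level threshold on both arrays, and its probe sets gave 0.35 and -1.52.

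No co-receptor or other receptor was called. Of 16 measured, 5 passed the level threshold, and the median difference was 0.20. Lrp6 read 83.4 against 72.5 (0.18), but its probe sets gave 0.64 and -0.29. Lrp5 read 28.1 against 16.1, below the level threshold. Ryk, a Wnt-binding receptor of the tyrosine kinase family, read 329 against 540 (-0.70). Ror2, the receptor of Wnt5a, read 64.9 against 36.5 (0.68). Vangl1, a planar polarity protein, differed by 0.52 and Ptk7, a further polarity receptor, by -0.20.

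Inside the cell, 22 of 24 level-passing genes lay within 2-fold, and the median difference over the 36 measured was -0.100. Ctnnb1, which encodes beta-catenin, read 1091 against 1150, a log2 difference of -0.076. Nkd2, an inhibitor that binds Dishevelled, was called higher at 100.05 against 44.0 (1.01), and Tle2, a Groucho co-repressor, was called lower at 41.3 against 94.7 (-1.02), both at the edge of the rule. Dact1 (-0.85), the transcription factor gene Tcf7l1 (-0.83) and the kinase gene Nlk (0.82) lay within 2-fold.

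Of the textbook targets of beta-catenin, 22 were measured and 12 passed the level threshold. Of those 12, 4 (33.3%) were called lower and 1 (8.33%) higher, against 7.11% and 9.39% of all level-passing genes. The median difference was -0.040 over the 22 and -0.73 over the 12, against 0.018 over all level-passing genes. Fosl1, an AP-1 subunit, read 89.7 against 301 (-1.63), with both probe sets lower. The receptor gene Ephb3 read 46.7 against 112 (-1.09), the BMP pseudoreceptor gene Bambi 53.4 against 121 (-1.03) and the growth regulator Myc 133 against 281 (-1.02). The calls of Ephb3, Bambi and Myc lay at the edge of the rule, each from 1 probe set, so the share called lower among these 12 genes depends on the cut. Ccnd1, the cyclin D1 gene, went the other way with 1673 against 746 (1.15). These genes answer to many signals besides Wnt. The cell cycle genes given above were lower on the same array, with the mitotic genes Plk1 at -3.26 and Kif20a at -2.91. The part of Wnt signalling or of cell division in the differences of these targets was not tested.

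**Figure D3:**
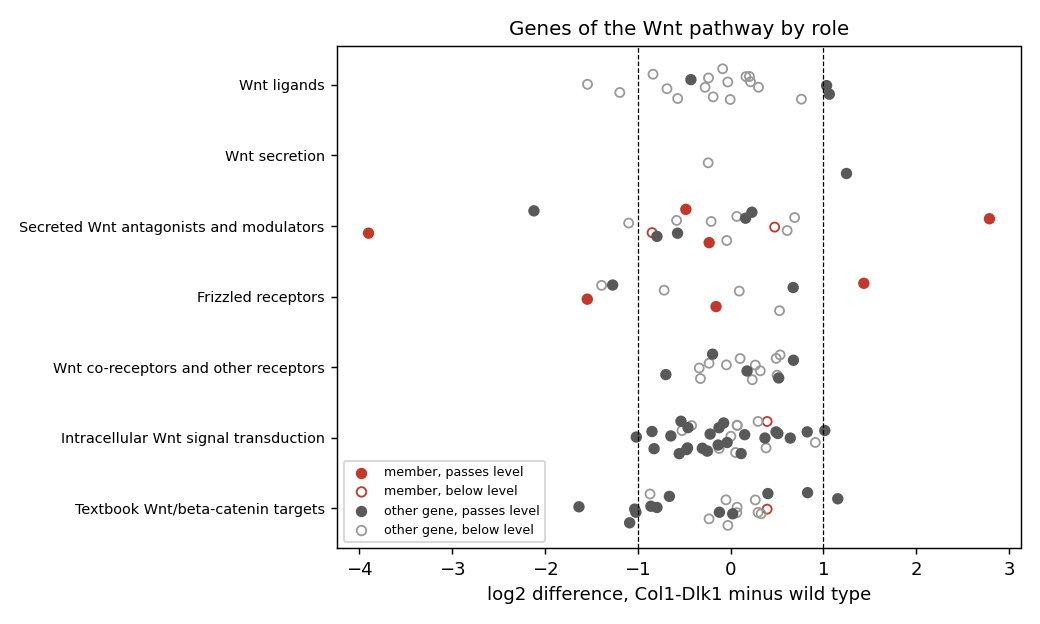
Difference between the arrays (log2, Col1-Dlk1 minus wild type) of every measured gene in each Wnt list, with the vertical position inside a list spread at random. Red marks the 10 genes described here, filled symbols pass the level threshold and open ones do not, and dashed lines show the 2-fold rule. Most of the filled symbols lie between the lines, and Sfrp2 and Dkk3 lie farthest out.

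With 2 arrays, likeness between genes can be judged only by nearness in both log2 values, and the 3 nearest genes are named for each extreme. Their like differences follow from this choice, and 2 values per gene cannot show shared regulation. Nearest to Sfrp2 were the cytokinesis gene Prc1 (32.8 against 523), the interleukin-1 receptor antagonist Il1rn (32.9 against 420) and the sphingosine phosphate receptor gene S1pr3 (35.3 against 425), at distances of 0.25, 0.44 and 0.47 log2 units. Dkk3 lay nearest to the pentraxin gene Ptx3 (895 against 155), the lysosomal enzyme gene Hgsnat (798 against 157) and Efhd2 (750 against 114), at distances of 0.27, 0.37 and 0.37.

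The markers of other cells that the cultures could hold are given here for reading beside these values. Of all level-passing genes 9.39% were called higher and 7.11% lower. Most lists here hold few level-passing genes, and their counts are too small to read as a share. C1qa and Lyz2, markers of macrophages, differed by 7.32 and 7.17. Of 9 measured osteoclast markers, 2 were called higher, Acp5 at 2.00 and Ctsk at 1.21, and the summed level was 838 (2.23 to 631) against 387 (4.45 to 266). Smooth muscle and pericyte markers had 2 of 10 called lower, Smtn and Mcam, with summed levels of 8800 (6.07 to 7450) and 8339 (7.37 to 6688). Among the 10 cartilage markers 1 was called lower, Sox9, with summed levels of 356 (1.55 to 121) and 468 (5.27 to 133). None of the 10 endothelial, 7 lymphocyte, 8 neutrophil and mast cell or 6 osteocyte markers was called, and Egfl7 and Pdpn alone passed the level threshold in these lists. None of the markers read exactly 0. The part of these cells in the differences of Sfrp2, Dkk3, Fzd6 and Fzd8 was not tested.

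**Figure D4:**
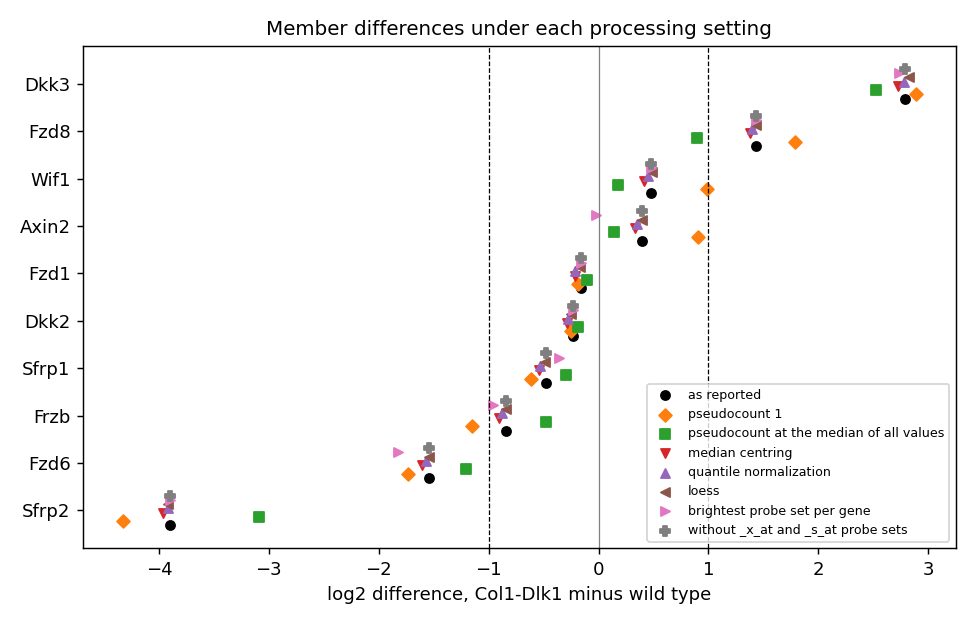
Log2 difference (Col1-Dlk1 minus wild type) of each of the 10 genes as reported (black) and under 7 other settings of pseudocount, scaling and probe-set handling, with dashed lines at the 2-fold rule. Sfrp2 stays between -4.33 and -3.09 and Dkk3 between 2.53 and 2.89, Fzd8 drops to 0.90 with the largest pseudocount, and Axin2 crosses 0 in 1 setting.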

How the data were processed

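RNA from pooled cultures was hybridised to Affymetrix mouse arrays, 1 per genotype. The authors deposited linear intensities, 1 per probe set and array, and the submitters' processing notes name Affymetrix Expression Console 1.1.1. Which algorithm, background correction and scaling target it applied is not stated in the sources used here. The mean after trimming 2% at each end was 150.06 and 150.07 on the Col1-Dlk1- and wild-type-labelled arrays, so they share a scale. Of 22690 probe sets, 20380 name 1 gene, 691 several, 1555 none and 64 are controls, and 20351 of the single-gene ones were matched by gene ID to RefSeq for current symbols. The series' design text names another array type than the annotation's platform, and the join was by probe-set ID. Detection calls were not used here.

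The 10 genes and the lists were chosen with earlier results of these data known, and no pattern is offered as independent support. The text names the 10 genes, Dlk1, every called gene of the Wnt lists and up to 5 level-passing genes of each with the largest difference, Lrp5, Lrp6, Ctnnb1 and Sost, up to 2 genes per marker list and the nearest genes. Others named below the level threshold were chosen afterwards, as were Col1a2, Prrx1, Lum, Thy1, Dcn, Pdgfra and Twist1. The steps were run on simulated data that placed large changes in bright genes only. That run does not cover differences near 2-fold or dim readings. Alternatives covered pseudocount, scaling, probe sets, level and fold. The software was Python 3.11.15, pandas 2.3.3, numpy 2.4.6, statsmodels 0.14.6, scipy 1.17.1 and, for figures, matplotlib 3.10.9.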

Additional observations from a re-analysis of the deposited data

How the results depend on the processing

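No paired analysis was possible because 1 array per genotype was analysed, which also leaves no replicate to take out. Median centring, quantile normalization, loess (span 0.3), the brightest probe set per gene and, chosen after seeing the data, leaving out probe sets ending in _x_at or _s_at changed no count by over 1.5 times and none of the 4 calls. Sfrp2 and Dkk3 were called in all 11 alternatives, Fzd6 in 10 and Fzd8 in 8. With the median of all values as pseudocount, 1 of the 10 genes was higher, with 3 Wnt list genes higher and 4 lower and 417 and 287 of all genes. A level threshold at the 75th percentile gave 1 of the 10 higher, 3 and 5 Wnt list genes and 331 and 236 of all genes. Without a level filter 944 of all genes were higher and 772 lower, with 7 and 13 Wnt list genes. At 3-fold 1 of the 10 was higher and 1 lower, with 1 and 3 Wnt list genes and 327 and 204 of all genes, and Fzd6 and Fzd8 were then not called. At 1.5-fold these were 12 and 16 Wnt list genes and 1307 and 1154 of all genes, against 638 and 483 as reported. With a pseudocount of 1 the differences of the dim genes Wif1 and Axin2 moved to 0.99 and 0.90, and that of Frzb to -1.15. Frzb was within 2-fold rather than below the level threshold in 5 of the 11 alternatives, which include the setting without a level filter. A dim reading limits Sfrp1, Sfrp2 and Fzd8 on one array and the averages of Frzb, Wif1 and Axin2 on both. The dimmer Fzd6 probe set also read below the level threshold, at 24.2, on the Col1-Dlk1-labelled array.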

Other observations

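Among the 57 genes of the Wnt lists that were too dim to call, 4 differed by at least 2-fold on the pseudocount scale. All 4 had their lower reading on the Col1-Dlk1-labelled array. Over the whole arrays 5598 genes were too dim to call. Leaving out the level filter raised the genes past 2-fold from 638 to 944 higher and from 483 to 772 lower. Dim genes past 2-fold thus lay in both directions, and 4 genes are too few to read as a share. The 4 Wnt genes were chosen after their values were seen, and each has 1 probe set. The ligand gene Wnt8a read 2.48 against 28.2 (-1.54) and the ligand gene Wnt10b, known for promoting bone formation, read 2.52 against 19.9 (-1.19). The receptor gene Fzd5 read 3.77 against 27.7 (-1.39) and Sfrp5, another secreted Frizzled-related gene, read 4.44 against 22.0 (-1.10). All these readings lie below the level threshold of 42.8, where no detection call was used to tell signal from background.

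Fzd3 had 4 probe sets that did not point the same way, with log2 differences of 0.76, 1.03, 0.23 and -1.65, and an average of 0.092. Only the last of them passed the level threshold, at 9.27 against 52.5.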
